A study of Homo sapiens with 16 samples.

Results

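The IL4 response of CREBBP-targeted lymphoma pools was taken from the 8 libraries of the series labelled as CREBBP targeted, which are 8 of 16 libraries in all. They were chosen by their labels, as 4 libraries treated with IL4 against 4 baseline libraries, with 1 library of each condition from each of 4 B cell lymphoma lines. Bulk RNA-seq, after depletion of ribosomal RNA, had been performed on human cell line pools transduced with a lentiviral Cas9 vector and guides against CREBBP, or against the AAVS safe harbour site as the control. Each pool was left untreated or was given 10 ng/ml of IL4 for 4 h. The pools are not single clones, so cells with an intact CREBBP gene may remain in them. The labels give the genotype as CREBBP -/- and AAVS -/-, and no age or passage of the cells. Line 1 is SUDHL4 and line 4 is DOHH2. For line 2 the cell line entry reads SUDHL10 and the title OCILY7, while for line 3 the entry reads OCILY7 and the title SUDHL10, so these are called line 2 and line 3 here. All comparisons pair the IL4 library with the baseline library labelled as the same line. With 1 library per line and condition, the 4 lines are the replicates of the pooled test, and a value within a single line has no replicate. The p-values thus measure the spread between these lines only. In bulk RNA, fewer cells that respond and a smaller response per cell cannot be told apart.

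IL4 binds a receptor of the IL4R chain and the common gamma chain IL2RG, which activates the kinases JAK1 and JAK3 and through them the transcription factor STAT6. Phosphorylated STAT6 dimers bind palindromic TTC...GAA elements and recruit coactivators, among them the histone acetyltransferases CREBBP and EP300. In germinal centre B cells the pathway induces feedback inhibitors such as CISH and SOCS1, the low affinity IgE receptor FCER2 (CD23) and IL4R itself.

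The 4 guides used against CREBBP are shown because they define the pools. For all 4 the expected cut position lies in a coding exon of the 31-exon reference transcript, on GRCh38. Whether the whole guide site lies in the exon was not examined. The PAM is in capitals after the guide. The sites are chr16:3850334-3850353 on the minus strand (guide CREBBP_2, cut in exon 2) and chr16:3780864-3780883 on the minus strand (CREBBP_1, exon 8). The others are chr16:3751711-3751730 on the plus strand (CREBBP_4, exon 20) and chr16:3739580-3739599 on the minus strand (CREBBP_3, exon 25).
CREBBP_2: ccgcaaatgactggtcacgcGGG
CREBBP_1: cttagcccactgatgaacgaTGG
CREBBP_4: caggacggtacttacgtctgGGG
CREBBP_3: attgcccccctccaaacacgAGG

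CREBBP transcript was present in every targeted library. Unless stated otherwise, levels are given as CPM, which divides each gene's count by its library's sum and applies TMM factors computed over these 8 libraries. CREBBP stood at 277, 175, 221 and 237 CPM in lines 1 to 4 at baseline and at 216, 89.5, 237 and 187 CPM with IL4. The groups overlapped, and the fitted log2 fold change was -0.39 ± 0.20 (SE, n = 4 lines, edgeR adjusted p = 0.924), or -0.20 without line 2. A guide-made insertion or deletion can leave the transcript in place, so this level checks neither the labels nor the protein.

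The 8 libraries held 29196801 to 61981976 counts. Levels of the B cell genes MS4A1, CD79A, CD79B, PAX5 and CD22 were at least 135.6 CPM in all 8. Of 13 T cell markers 4 to 9 were at 0 in each library, with a summed level of 89.6 to 173 CPM, and 12 myeloid markers summed to 5.85 to 11.8 CPM (sums in this paragraph are scaled to total counts, without TMM factors). The transcripts IGHM, IGHD, CD44 and VIM summed to 8.36 CPM or less in the 8 libraries, and to 694 to 3472 CPM in the 4 AAVS libraries with IL4, which touches every AAVS value given below. Its part in those values was not tested.

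Lines 1 and 3 were close to each other in expression. Across 18282 genes, the baseline libraries of lines 1 and 3 correlated at r = 0.969 on log2 CPM, against 0.962 for baseline and IL4 of line 1 itself (a description across genes, of libraries that share their preparation). For the IL4 libraries of lines 1 and 3 the value was 0.953, lower than between baseline and IL4 within any line (0.962 to 0.986). Only 2 genes were at 5 CPM or more in both libraries of line 1 and at least 8-fold lower in both of line 3, and 0 genes the other way. Between lines 1 and 4 these counts were 20 and 27, whereas line 2 exceeded line 1 by that margin at 130 genes and line 1 exceeded line 2 at 273.

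The IL4 library of line 3 also moved towards line 4. Of the 27 genes that were 8-fold higher in line 4 than in line 1, 26 were higher with IL4 in line 3, with a median log2 change of 1.09, and of the 20 genes higher in line 1 than in line 4, 17 were lower, with a median of -0.78. These genes were chosen on lines 1 and 4 alone. Whether lines 1, 3 and 4 were separate cultures of separate lines was not tested, and results are also given without each line.

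No gene passed the threshold when IL4 was compared with baseline over the 4 lines. Of 18282 genes tested by edgeR (quasi-likelihood, paired by line), 0 (0%) had an adjusted p under 0.05, and the smallest adjusted p was 0.924. At an unadjusted p under 0.05 there were 502 genes (2.75%), 263 higher and 239 lower. limma-voom also called 0 genes and DESeq2 called 1, the transcript ELOA3BP. Without a filter on low counts, edgeR called 40 of 34259 genes, 22 of them higher. Leaving out any line gave 0 calls.

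Genes that moved in the same direction in all 4 lines were not called. Higher values in 4 of 4 lines were seen for 1178 genes (6.44%) and lower values for 1528 (8.36%). Those with a symbol and a mean of at least 1 CPM over the 8 libraries were ranked by unadjusted p. The 10 ranked first among those higher in 4 lines, all below the threshold, were KRR1, ZMPSTE24, ZNF267, ZNF92, POLR1F (a subunit of RNA polymerase I), TFEC, RIOK2 (a kinase of small ribosomal subunit maturation), SRFBP1, VPS26A and CD69. KRR1, a factor of the small subunit processome, went from 44.03, 64.5, 49.6 and 58.4 CPM at baseline to 50.9, 126, 89.8 and 86.2 CPM with IL4 in lines 1 to 4. Its fitted log2 change was 0.65 ± 0.17 (SE, edgeR unadjusted p = 0.00417, adjusted p = 0.924). KRR1 moved least in line 1, where its IL4 level was under the baseline of lines 2 and 4.

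CD69, an early activation antigen of lymphocytes, had the largest fitted change of these 10 genes. Its levels were 10.1, 0.721, 9.75 and 1.13 CPM at baseline and 14.3, 11.2, 17.98 and 3.44 CPM after IL4. The log2 changes within lines were 0.50, 3.88, 0.88 and 1.57, and the fitted value was 1.58 ± 0.48 (SE, edgeR adjusted p = 0.924). Each line was higher with IL4, but the groups overlapped because line 4 reached only 3.44 CPM. The fitted value was 0.97 without line 2 and 2.03 without line 1.

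TFEC, a transcription factor of the MITF family, stood at 3.09, 7.34, 4.53 and 7.70 CPM at baseline and at 5.09, 30.8, 8.15 and 9.54 CPM after IL4. ZMPSTE24 (a metalloprotease that processes prelamin A), VPS26A (a retromer subunit) and the zinc finger genes ZNF267 and ZNF92 had fitted log2 changes of 0.57 to 0.70. For ZNF92 and ZNF267 the level in line 3 went from 30.4 to 77.0 CPM and from 19.2 to 35.7 CPM, where line 4 stood at 60.8 and 44.6 CPM at baseline.

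By the same ranking, the first 10 genes among those lower in 4 lines were ELOA3BP, PKD1P1, GEMIN7-AS1, HCG27, LRRC25, NPIPA9, LRRC32, LINC01814, ABCB6 and PCNX2. ELOA3BP went from 5.24, 2.16, 8.57 and 46.7 CPM to 1.45, 0.954, 5.09 and 19.9 CPM, with a fitted log2 change of -1.25 ± 0.22 (SE, edgeR unadjusted p = 0.000268, adjusted p = 0.924). NPIPA9 here is ENSG00000233024, 1 of 2 identifiers that carry this symbol, and the other was lower in line 2 only. ELOA3BP, PKD1P1 and NPIPA9 belong to families of near-identical copies, between which estimated counts can be split, and their values are uncertain. LRRC32 (GARP), which presents latent TGF beta on the cell surface, stood at 342, 86.7, 270 and 70.8 CPM at baseline and at 316, 50.4, 181 and 32.6 CPM after IL4. Its fitted log2 change was -0.65 ± 0.19 (SE), and line 1 moved least. PCNX2, with the largest fitted change of these 10 genes at -2.07 ± 0.63 (SE), was at 5.86 CPM at baseline and 3.18 CPM after IL4 in line 2 and at 0.458 CPM or less in the 6 other libraries, where few counts stand behind it. HCG27 went from 1.56, 3.01, 1.68 and 7.73 CPM to 0.681, 1.49, 1.08 and 1.80 CPM, with a fitted log2 change of -1.25 ± 0.34 (SE).

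The core IL4 programme, 33 genes that the study selected as induced in primary B lymphocytes, was described by its counts and median. Of the 33 genes 28 passed the filter on low counts, 19 were higher and 9 lower, and 0 had an adjusted p under 0.05. The median fitted log2 fold change was 0.18, against -0.04 over all genes tested. The medians within lines 1 to 4 were 0.16, 0.74, 0.05 and -0.11, against -0.01, -0.11, -0.03 and -0.00 over all genes. HHEX, the single gene of the study's list that IL4 lowers, stood at 17.1 to 17.8 CPM at baseline and at 15.9, 9.32, 17.2 and 16.03 CPM after IL4. The plot of core genes by line shows the largest changes in line 2. The numbers of core genes higher with IL4 were 18, 20, 16 and 8 in lines 1 to 4.

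**Figure D1:**
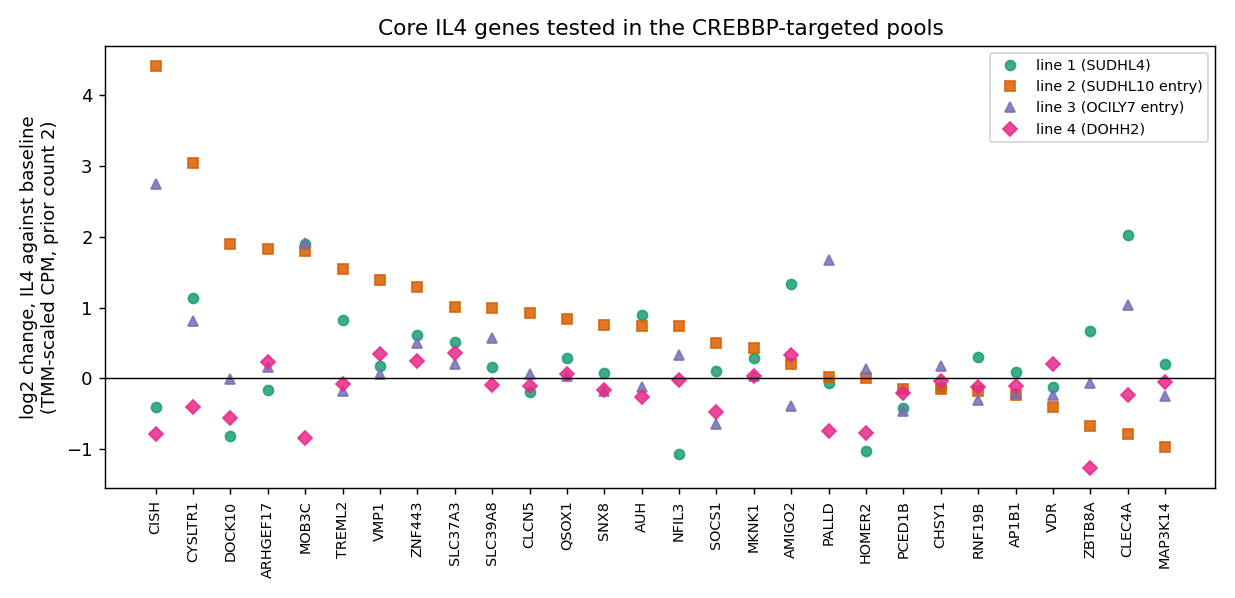
Log2 change with IL4 (vertical axis, TMM-scaled CPM with a prior count of 2) of the 28 core IL4 genes tested, ordered by line 2, with 1 point per line. CISH and CYSLTR1 stand highest in line 2, at 4.42 and 3.05, while line 4 lies at or under 0.35 for every gene.

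In the AAVS pools the same list had a median log2 change of 2.302 over 32 tested genes, of which 31 were higher and 12 had an adjusted p under 0.05 (488 of 20310 genes, 2.4%, were called in all). In a single fit of the 16 libraries 5 of 32 core genes had a different response in the 2 kinds of pool, all lower in the CREBBP pools (140 of 21932 genes, 0.638%). These were DOCK10, VDR, PCED1B, SPINT2 and TMEM71. DOCK10, a guanine nucleotide exchange factor, was at 12.1, 0.636, 3.90 and 3.12 CPM at baseline and at 145, 22.6, 290 and 96.7 CPM after IL4 in the AAVS pools, and, scaled over their own 8 libraries, at 1.31, 0.910, 0.611 and 0.877 CPM and then 0.724, 3.50, 0.608 and 0.581 CPM in the CREBBP pools (log2 difference -4.74 ± 0.71, SE, edgeR adjusted p = 0.0163). The count of 140 was 16 without line 1, 18 without line 3, 264 without line 2, and 2 without the pairing of libraries by line. The AAVS libraries with IL4 are those that hold IGHM, IGHD, CD44 and VIM transcripts.

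In the core list 3 of 28 tested genes reached an unadjusted p under 0.05 by edgeR, all higher: MOB3C, ZNF443 and SLC37A3. Over all 18282 genes tested, 263 did so as higher and 239 as lower. MOB3C, a member of the MOB kinase activator family, stood at 0.401, 5.05, 0.382 and 1.23 CPM at baseline and at 1.62, 17.8, 1.55 and 0.664 CPM after IL4 in lines 1 to 4. It was higher in lines 1, 2 and 3 and lower in line 4, with a fitted log2 change of 1.25 ± 0.50 (SE, edgeR unadjusted p = 0.0343, adjusted p = 0.924), or 1.94 without line 4. ZNF443, a zinc finger gene, went from 1.36, 4.39, 1.58 and 3.22 CPM to 2.09, 10.8, 2.25 and 3.83 CPM. SLC37A3, a transporter of the lysosomal membrane, went from 3.31, 7.53, 3.08 and 2.68 CPM to 4.75, 15.2, 3.56 and 3.43 CPM, and both were higher in 4 of 4 lines.

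Line 2 was looked at alone. CISH, the STAT-induced SH2 protein that damps cytokine receptors (chromosome 3, 50606489 to 50611774, minus strand), had 6 counts at baseline and 154 with IL4, or 0.188 and 4.90 CPM. In lines 1, 3 and 4 it stayed at 0.326 CPM or less in all 6 libraries, although line 3 went from 0 to 11 counts. The AAVS pool of line 2 had 0.212 CPM at baseline and 9.42 CPM after IL4, scaled over the AAVS libraries. The difference of line 2 from the other 3 lines was 4.36 ± 1.96 on the log2 scale (SE, edgeR adjusted p = 0.288), which did not pass.

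The promoter of CISH (RefSeq, GRCh38.p14, chr3:50611725-50612024, minus strand) is shown because its gene had the largest change of the core list in line 2. Capitals mark the STAT element TTCNNNGAA, read on 1 strand since it is its own reverse complement, of which the window held 4.
CISH: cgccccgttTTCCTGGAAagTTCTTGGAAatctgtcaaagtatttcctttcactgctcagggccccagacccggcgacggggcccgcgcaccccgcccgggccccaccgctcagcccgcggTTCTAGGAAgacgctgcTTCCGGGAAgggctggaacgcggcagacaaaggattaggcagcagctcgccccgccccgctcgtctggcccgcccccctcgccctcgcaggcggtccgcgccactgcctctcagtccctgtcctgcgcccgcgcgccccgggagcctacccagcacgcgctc

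Of 27305 promoters of this length, 7.88% held TTCNNNGAA and 6.37% held the same letters with 4 free bases between TTC and GAA, the spacing that STAT6 prefers. Of the 25 core genes with a promoter in the table, 4 and 3 held them. The CISH window shown held 0 with 4 free bases. A match describes the letters and is not a measured site.

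In line 2, 20 core genes were higher and 8 lower, among the latter the NF-kB kinase MAP3K14, from 28.0 to 14.2 CPM. Of all 18282 genes tested, 7939 were higher in line 2. On total counts, without the TMM factors that raised the log2 changes of line 2 by 0.48, 16 core genes were higher and 12 lower. The share of all genes higher on that scale was not computed. CYSLTR1, the receptor for cysteinyl leukotrienes, went from 0.972 to 8.37 CPM in line 2 and stood between 0.387 and 1.21 CPM in the 6 libraries of the other lines. FCER2 went from 6.65 to 27.3 CPM in line 2 and from 4.09 to 7.64 CPM in line 1, was level in line 3 at 4.99 and 4.86 CPM, and was lower in line 4 at 2.42 and 1.51 CPM. VMP1, a membrane protein of autophagosome formation, went from 74.7 to 197 CPM in line 2, and its 6 values in the other lines were 28.6 to 48.3 CPM.

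IL4R, the ligand-binding chain of the receptor, stood at 97.4 CPM at baseline in line 2 and at 196 CPM with IL4. In the other lines it changed from 103 to 111, from 79.2 to 78.8 and from 77.5 to 76.3 CPM. RRAGD, a GTPase that activates mTOR at the lysosome, went from 27.8 to 46.5 CPM in line 2 and stood between 6.98 and 9.76 CPM elsewhere. NFIL3, a basic leucine zipper repressor, went from 25.6 to 42.6 CPM in line 2 and from 9.64 to 4.55 CPM in line 1.

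None of these passed the test of line 2 against the other 3 lines. The log2 differences were 1.20 ± 0.25 for VMP1 (SE, edgeR adjusted p = 0.0809), 0.98 ± 0.24 for IL4R (0.096), 1.96 ± 0.60 for FCER2 (0.145) and 2.56 ± 0.89 for CYSLTR1 (0.182). Of the 18 core genes at 5 CPM or more in line 2, 5 were over 2-fold higher and 0 over 2-fold lower, where 10.6% and 4.44% of all genes were. On total counts 2 of the 18 core genes were over 2-fold higher and 1 lower. On that scale 409 of all genes were over 2-fold higher and 2430 lower.

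**Figure D2:**
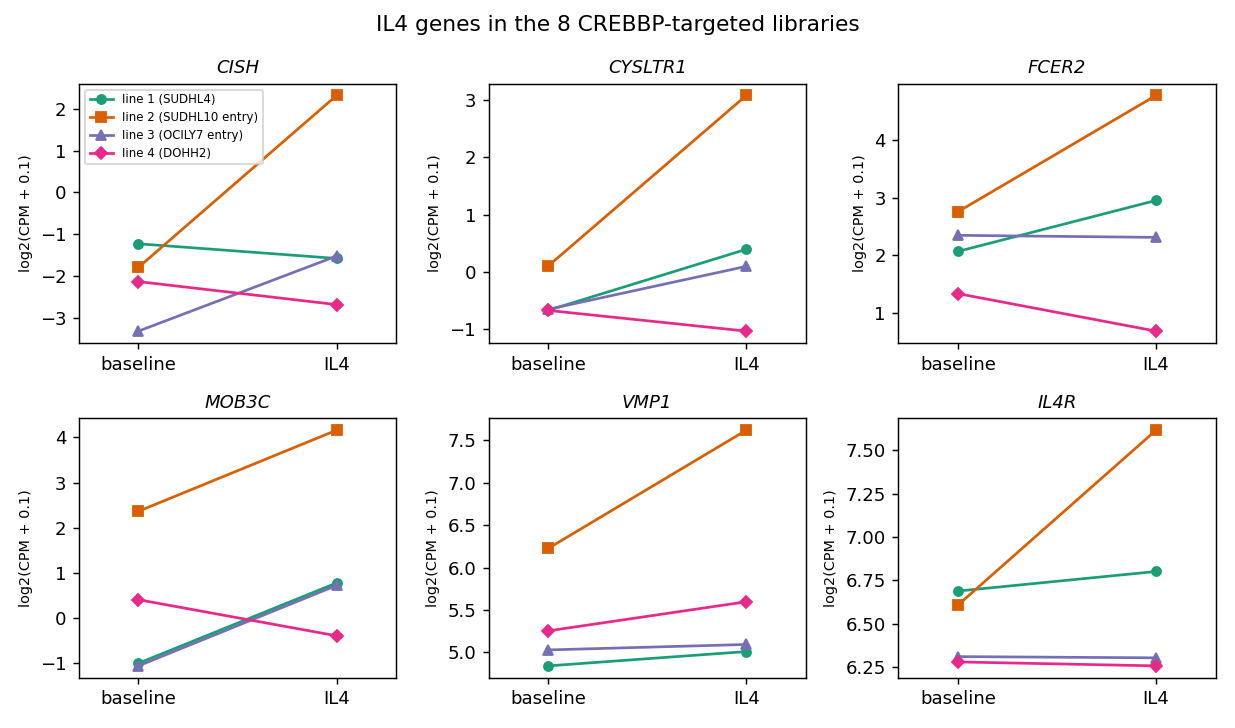
Levels of 6 IL4 genes as log2(CPM + 0.1) (vertical axes, which differ in range) at baseline and with IL4 in the 8 CREBBP-targeted libraries, with 1 line joining the libraries of each cell line. Line 2 is higher with IL4 in all 6 panels, for IL4R from 97.4 to 196 CPM.

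The receptor pathway was described from a list of its receptors, kinases and inhibitors. Of 17 pathway genes 14 were tested, 5 were higher and 9 lower, and none reached an unadjusted p under 0.05. JAK3, the kinase bound to the common gamma chain, was at 58.5 CPM at baseline in line 2 and at 0.178 to 0.527 CPM in the others. With IL4 it was at 28.7 CPM in line 2 and at 0.383 to 0.681 CPM elsewhere. IL2RG stood at 123 CPM in line 2 against 24.9 to 36.2 CPM at baseline, and STAT5A at 65.3 CPM against 3.22 to 10.6 CPM. STAT6 did not separate the lines in this way, at 402, 335, 378 and 203 CPM at baseline and 407, 231, 362 and 244 CPM after IL4.

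Line 2 also showed the broadest shift of all genes. Of 10208 genes at 5 CPM or more, 1084 (10.6%) were over 2-fold higher with IL4 and 453 (4.44%) over 2-fold lower. In line 1 these counts were 37 (0.366%) and 67 (0.663%) of 10113, in line 3 they were 89 (0.879%) and 258 (2.55%) of 10130, and in line 4 they were 43 (0.416%) and 114 (1.1%) of 10330. The split in line 2 depended on the scaling. With total counts in place of TMM factors it was 409 higher and 2430 lower, since TMM scaling raised the log2 change of every gene in line 2 by 0.48. The same shift was -0.28 in line 3 and within 0.034 of 0 in lines 1 and 4.

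In the test of line 2 against the other 3 lines, 3 genes passed (0.0164%). These were the pseudogene RPL21P119 and the small nucleolar RNA SNORA73B, both higher, and the mitochondrial ribosomal RNA MT-RNR1, lower. MT-RNR1 was at 99.8 CPM at baseline and 0.827 CPM after IL4 in line 2 (log2 difference -7.53 ± 0.59, SE). In lines 1, 3 and 4 it was at 1.46, 1.86 and 47.2 CPM and then 2.09, 5.02 and 50.0 CPM. Its level also varied widely between AAVS libraries, scaled to total counts. There it went from 0.981 to 23.3 CPM with IL4 in line 2 and from 102.7 to 2.34 CPM in line 3. In lines 1 and 4 of the AAVS pools it went from 0.446 to 1.40 CPM and from 39.4 to 37.8 CPM. An unadjusted p under 0.05 was reached by 3393 genes, and an adjusted p under 0.1 by 709. The count of calls was not stable: it was 749 with at least 10 counts in every library, 1263 with DESeq2, 692, 1872 and 220 without lines 1, 3 and 4, and 0 with DESeq2 size factors or without the pairing.

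The changes in line 2 and line 3 ran with transcript type and length, in opposite directions. Short noncoding RNAs such as 7SK and 7SL, which regulate transcription elongation and protein targeting, took 6.001% of the counts of line 2 at baseline and 18.1% with IL4. In line 3 their share was 13.3% at baseline and 5.20% with IL4, and in lines 1 and 4 it moved from 7.14% to 7.91% and from 5.04% to 4.41%. Of small RNA genes at 5 CPM or more, 87.5% were over 2-fold higher in line 2 and 83.3% over 2-fold lower in line 3.

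The 79 ribosomal protein genes tested had median log2 changes of -0.04, 1.58, -0.77 and -0.05 in lines 1 to 4, and 14 replication histone genes had -0.27, 1.42, -1.09 and -0.63. Protein-coding genes under 1000 bases of exon had a median of 1.22 in line 2 and -0.86 in line 3. The Spearman correlation between log2 change and exon length across genes, a description, was -0.31 in line 2 and 0.45 in line 3. With the length trend removed, the core medians were 0.18, 0.61, -0.07 and -0.13. Of the 18 core genes at 5 CPM or more in line 2, 7 were then over 2-fold higher, where 967 of 10208 genes were. The log2 change in line 2 was then 4.48 for CISH, which stayed under 5 CPM, and 3.15 for CYSLTR1. It was 1.92 for FCER2, which is not in the core list. The part of this shift in the changes named for lines 2 and 3 was not tested.

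**Figure D3:**
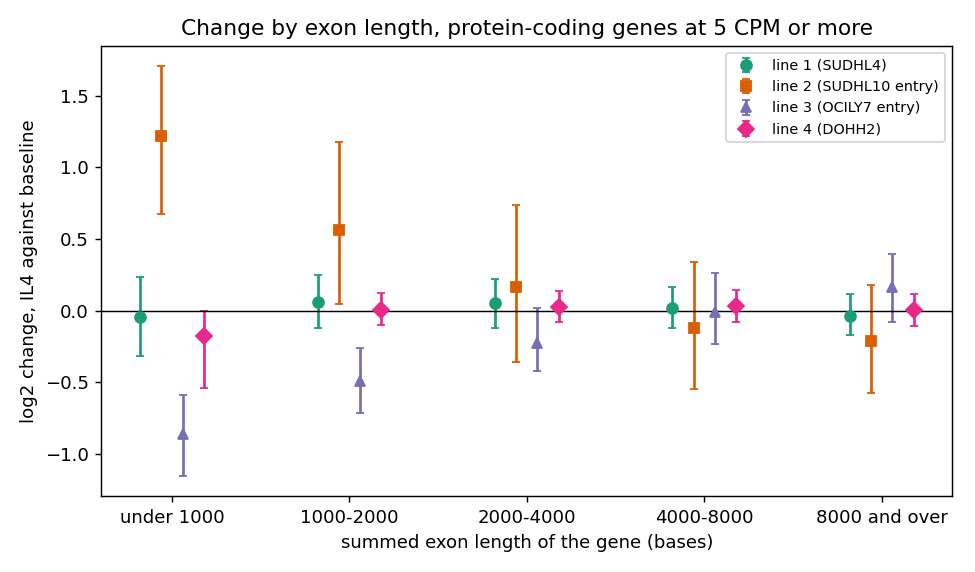
Median log2 change with IL4 (vertical axis) of protein-coding genes by summed exon length in bases (horizontal axis), per line, with bars from the lower to the upper quartile. Short genes are higher in line 2, at 1.22 under 1000 bases, and lower in line 3, at -0.86, while lines 1 and 4 stay within 0.18 of 0.

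Line-restricted genes were over 2-fold changed in a single line and under about 1.4-fold in each of the others. Line 2 had 394 higher and 339 lower genes of this kind, against 3 and 17 in line 1, 28 and 5 in line 3, and 8 and 17 in line 4. Ranks given here and below are among those that carry a symbol. JCHAIN, the joining chain of secreted IgM and IgA, had the largest increase of the genes restricted to line 2, from 35.7 to 329 CPM, and its 6 values in the other lines were 432 to 791 CPM. The AAVS pool of line 2 went from 69.1 to 199 CPM.

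Of the 10 largest increases restricted to line 2, that of RPS24P8 came next, at a log2 change of 2.81. SELENOT, a selenoprotein of the endoplasmic reticulum, followed at 2.28, from 93.4 to 453 CPM. Last of the 10 were the germinal centre gene GCSAM, from 35.9 to 146 CPM, and KYNU, an enzyme of tryptophan breakdown, from 8.88 to 35.8 CPM. RBIS, RPL21, RPS3A and the copies RPS24P8, RPL21P75 and RPL21P28 completed the 10, and reads of these copies can be shared with their parent genes. Lower values restricted to line 2 included RAP1GAP2 from 20.6 to 5.09 CPM, LOXL2 from 38.1 to 11.2 CPM, BCL9L from 24.97 to 7.38 CPM and PLEC, the cytoskeletal linker plectin, from 418 to 141 CPM. In the other lines the 6 values of PLEC were 112 to 275 CPM.

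Genes restricted to line 3 included TLR1, a Toll-like receptor, from 9.95 to 24.8 CPM, and CENPE, a kinetochore motor, from 52.97 to 121 CPM. Line 4 stood at 22.3 and 24.6 CPM for TLR1 and at 222 and 171 CPM for CENPE. Among genes restricted to line 1 the largest decreases were those of SMN2, from 10.6 to 1.92 CPM, and the read-through transcript ANKHD1-EIF4EBP3, from 76.4 to 19.7 CPM, and both share sequence with another gene. The tests of line 1, line 3 and line 4 against the other lines called 3 genes (0.0164%), 0 genes (0%) and 0 genes (0%), with 884, 709 and 182 genes at an unadjusted p under 0.05 by edgeR. DESeq2 called 28, 8 and 5.

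Immediate-early genes are induced within minutes of a stimulus, and many of them encode transcription factors. They had a median log2 change of 1.23 in line 4 over 17 genes, 15 of them higher and 2, MYC and KLF6, lower. Their medians were -0.04, -0.52 and -0.56 in lines 1 to 3. In line 4, 5 were over 2-fold higher, and none of the 17 passed the test of line 4 against the other lines. EGR1 was at 95.9, 74.8, 88.8 and 1.004 CPM at baseline in lines 1 to 4, and at 92.6, 46.0, 63.2 and 12.4 CPM with IL4. The line 4 difference from the others was 4.03 on the log2 scale (edgeR adjusted p = 0.268), the smallest adjusted p of that test.

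FOS went from 2.22 to 8.46 CPM in line 4 and stood at 104 CPM or more in the 6 libraries of the other lines. FOSB went from 2.84 to 12.03 CPM, JUN from 7.14 to 26.1 CPM and EGR3 from 0.335 to 3.13 CPM. Line 4 began lowest for each of these genes, and with IL4 it was still the lowest for EGR1, EGR3, FOS and FOSB, but not for JUN, which stood at 16.3 CPM in line 2. In the AAVS pool of line 4 the 5 genes were lower with IL4, EGR1 at 74.6 and then 15.7 CPM. SGK1, a serum-induced kinase, was restricted to line 4 at 8.21 and 28.0 CPM.

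**Figure D4:**
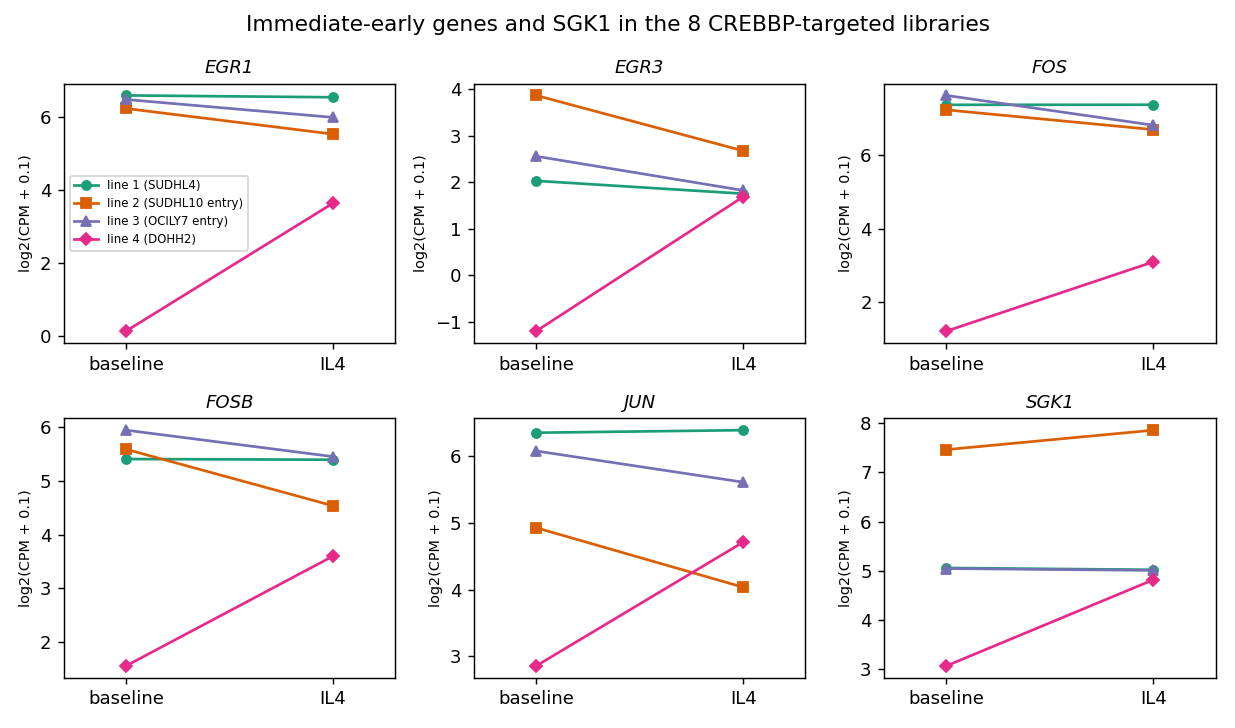
Levels of 5 immediate-early genes and SGK1 as log2(CPM + 0.1) (vertical axes, which differ in range) at baseline and with IL4 in the 8 CREBBP-targeted libraries, with 1 line joining the libraries of each cell line. Line 4 is higher with IL4 in every panel and has the lowest baseline, for EGR1 from 1.004 to 12.4 CPM.

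The medians of other gene groups moved little over the 4 lines. Among 12 MHC class II genes 5 were higher and 7 lower, with a median log2 change of -0.02 and none at an unadjusted p under 0.05. HLA-DRA went from 337 to 763 CPM in line 2 and from 1295 to 901 CPM in line 3. Of 18 germinal centre genes 10 were lower, with a median of -0.13, and 5 of them were lower in 4 lines. BCL6, the germinal centre repressor, stood at 550, 392, 564 and 448 CPM at baseline and at 485, 274, 465 and 329 CPM after IL4 (log2 -0.36 ± 0.17, SE, edgeR adjusted p = 0.924).

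A list of textbook IL4 targets, which shares CISH, FCER2 and IL4R with the genes above, had 5 higher and 4 lower of 9 tested and a median of 0.00. PIM1, a STAT-induced kinase, was lower in 4 of 4 lines, at 66.5, 7.68, 51.9 and 76.2 CPM and then 60.5, 3.91, 44.1 and 58.2 CPM. CCL17, a chemokine induced by IL4, had at most 0.255 CPM in any of the 8 libraries. Medians were 0.13 for 12 heat shock genes, 0.15 for 17 stress response genes, -0.04 for 19 sterol synthesis genes, -0.10 for 17 glycolysis and hypoxia genes, -0.12 for 15 p53 targets, -0.10 for 14 NF-kB feedback genes and 0.07 for 21 mitosis and replication genes. Of these 115 genes 5 reached an unadjusted p under 0.05 by edgeR as higher and 5 as lower. This is a larger share than the 2.75% of all genes tested that did so in either direction, and the difference was not tested. The stress response list held 2 of the higher and 1 of the lower genes, and the NF-kB feedback list 1 and 2.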

How the data were processed

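Per the labels and the methods of the study, the authors sequenced ribosomal RNA depleted libraries, trimmed reads with cutadapt 2.3, aligned them with STAR 2.7.8a to GRCh38 and deposited expected counts per gene from RSEM 1.3.3. The RNA input was 50 ng per the labels, while the methods, which are written for primary B cells and referred to for the lines, give 2 ng. The annotation release was not given in the sources used here. Estimated counts were rounded to whole numbers. Genes were filtered with filterByExpr, scaled by TMM and tested with edgeR 4.0.16 (R 4.3.3), the quasi-likelihood test and Benjamini-Hochberg adjustment, with the line as a block. Samples were grouped by title, and lines were taken as replicates 1 to 4. Same-numbered baseline and IL4 libraries carry the same line in their titles and were paired on that basis. Their deviations from the group means correlated at 0.859, 0.841, 0.543 and 0.888 in lines 1 to 4. Whether paired libraries come from the same cells was not tested. Each line was also tested against the other 3, and the 2 kinds of pool in a fit of 16 libraries. Log2 changes within a line used a prior count of 2. Counts over 2-fold needed 5 CPM in 1 of the 2 libraries. Exon lengths and positions came from GENCODE 44, promoters from RefSeq.

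Alternatives were DESeq2 1.42.0, limma-voom 3.58.1, other size factors, other filters, no block and leaving out each line. Removing the exon-length trend was chosen after seeing the data. Named genes were the IL4 and CREBBP genes of the lists, the 10 smallest p-values in each direction among genes that moved 1 way in 4 lines, the largest line-restricted changes, and genes that passed a test of a line. The p-value and line-restricted picks needed a symbol, and the p-value picks also a mean of at least 1 CPM over the 8 libraries. The members and lists were chosen with earlier results of these data known. The test scripts were tested on simulated data.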

Additional observations from a re-analysis of the deposited data

Results flagged for a closer look

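Of 73 sets of 4 values examined, 4 had a value far from the other 3, and chance gives about 1 in 20. These were the log2 change of IL4R in line 2 (1.01), that of MOB3C in line 4 (-0.85), the median of the interferon-stimulated list in line 2 (0.065) and the MT-RNR1 level among the IL4 libraries in line 4 (58.3 CPM scaled to total counts).

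Responses of line 2 that differed from the other 3 lines by edgeR were those of SNORA73B (log2 difference 4.52), RPL21P119 (6.42) and MT-RNR1 (-7.53). SNORA73B went from 5.96 to 70.8 CPM in line 2 and RPL21P119 from 0.314 to 12.98 CPM. In line 1 they were those of GTF2IP1 (10.75), ENSG00000258017 (8.82) and ENSG00000272772 (-11.08), which rest on libraries at or near 0 counts, so the fitted sizes depend on the prior count.

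Responses of core genes that differed between the CREBBP and AAVS pools were those of VDR (-2.09), DOCK10 (-4.74), TMEM71 (-6.50), SPINT2 (-6.82) and PCED1B (-1.31), each lower in the CREBBP pools. TMEM71 had 7 counts or fewer in every CREBBP library and SPINT2 had 18 or fewer.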

How the results depend on the processing

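The count of 0 genes for IL4 over the 4 lines became 40 without a filter on low counts and 1 with DESeq2, and was 0 without each line (0 to 0), without the replicate block and in the other settings run. The core median stayed between 0.08 and 0.36. For line 1, 3 genes became 150 with no filter, 1 with at least 10 counts in every library, 28 with DESeq2, 0 without the block, and 37 to 108 without another line. For line 2, 3 genes became 0 with DESeq2 size factors, upper-quartile factors or no block, 1514 with no filter, 749 with at least 10 counts, 1263 with DESeq2, 24 with the length trend removed, and 220 to 1872 without another line. For line 3, 0 became 176, 8 with DESeq2 and 34 to 326. For line 4, 0 became 20, 1 with at least 10 counts, 5 with DESeq2 and 2 to 15. The AAVS count of 488 became 25 with at least 10 counts and 64 to 1035 without a line, and the difference between pools 69 with at least 10 counts, 2 without the block and 16 to 264. Genes over 2-fold in line 2 numbered 2580 at 1 CPM and 2839 on total counts. The cause was not tested. Named genes that changed sign were NFIL3 (-0.0082 with upper-quartile factors, -0.25 to 0.37 without a line), STAT6 (-0.18 to 0.074) and SOCS1 (-0.34 to 0.041). The baseline libraries of lines 1 and 3 resemble each other as closely as libraries of 1 line do, their IL4 libraries (r = 0.953) less so, and 4 lines may hold fewer than 4 independent replicates, and genes near 0 counts limit every test.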

Other observations

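Among the 13 mitochondrially encoded protein genes, 12 were higher with IL4, with a median fitted log2 change of 0.26 and medians of -0.36, 0.29, 0.33 and 0.59 in lines 1 to 4, and 1 reached an unadjusted p under 0.05 by edgeR. Plasma cell genes, of which 4 of 7 were tested, had medians of 0.17, 1.29, -0.22 and -0.13, with JCHAIN among them. SOCS1, the feedback inhibitor of JAK kinases, stood at 42.1, 18.8, 38.2 and 19.9 CPM at baseline and at 45.2, 26.5, 24.5 and 14.2 CPM after IL4, higher in lines 1 and 2 and lower in lines 3 and 4. EP300, the paralogue of CREBBP, went from 356, 178, 272 and 356 CPM to 299, 107, 310 and 310 CPM.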
